A study of Mus musculus with 96 samples.

Results

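The gene set described in these data holds 44 genes of fatty acid oxidation and of the target genes of the nuclear receptor PPAR-alpha, chosen by gene symbol from the 56748 genes of the deposited count table, and all 44 symbols were found. Cells take up fatty acids through carriers, join them to coenzyme A with acyl-CoA synthetases, and bring long chains into mitochondria by the carnitine shuttle, at which malonyl-CoA blocks entry. Beta-oxidation then shortens the acyl-CoA in mitochondria, handing electrons to the respiratory chain through an electron transfer flavoprotein, while peroxisomes shorten very long and dicarboxylic chains. PPAR-alpha, which binds fatty acids and works as a pair with a retinoid X receptor, is known as the main switch for these genes in the fasted liver, muscle burns fatty acids at rest and in exercise, and the brain is known for burning few of them.

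Poly-A RNA was sequenced from liver, skeletal muscle and cerebral cortex of mice fed ad libitum (AL) or kept on intermittent fasting (IF). Mice 1 to 8 (AL) and 9 to 16 (IF) are male C57BL/6 mice that began their diets at 6 weeks of age, the IF mice going without food for 16 h of every day over 4 months. They were killed in the morning, when the fasting hours ended, so that the last fast and the months of the diet cannot be told apart. Mice 25 to 32 (AL) and 33 to 40 (IF) are labelled female, and the study's account of its design does not describe them: their strain, age, fasting hours and time on the diet are not given, and the set of mice and sex cannot be told apart. Each tissue of each diet and set holds 8 libraries from 8 different mice, of which all were used but the library of AL mouse 1 in cortex, so that cortex AL of mice 1 to 16 rests on 7.

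The library of AL mouse 1 in cortex goes against its label and was left out of every comparison. It is labelled male, yet it held 213 counts-per-million (CPM) of Xist, the RNA of the inactive X chromosome, and no count of the Y-linked genes searched. In the other 47 libraries labelled male Xist lay at or below 0.612 CPM and the summed Y-linked genes between 67.9 and 177 CPM, while the 48 labelled female held 36.8 to 1627 CPM of Xist and at most 0.0746 CPM of the Y-linked genes. The 95 libraries used held 26097314 to 49838004 counts (median 36132954), with 26097314 to 44763638 in liver, 28319147 to 49838004 in muscle and 31231970 to 40235336 in cortex. Tissue labels were checked against 4 marker genes each. In AL mice 1 to 8 the summed level had a median of 54530.5 CPM for hepatocyte markers in liver, 123166 CPM for myofibre markers in muscle and 5508 CPM for neuron markers in cortex, and no liver or muscle library of mice 1 to 16 held over 6.27 CPM of the other tissue's markers.

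The sequences of some genes of the set bear on what their counts mean. Of the 44 genes, 25 are overlapped by another gene, 19 of them on the opposite strand, and 7 share over 10% of their 50-base stretches with another gene; how the counting treated strand, shared positions and reads with several matches is not stated. Cpt1b (ENSMUSG00000078937, chromosome 15 from 89300608 to 89310066 of GRCm39), the form of carnitine palmitoyltransferase 1 named for muscle, shares 54.1% of its stretches with the overlapping gene model Gm44502, which held 0 counts in all 95 libraries. Counts of Cpt1b were low as well, and the part of that overlap in its low level was not tested. Acot3 shares 24.4%, of which 22.6% with the overlapping gene model Gm49366, also at 0 counts in all 95 libraries. For Acot2 and Acot1, neighbours on chromosome 12 that share sequence with each other, the share was 27.2% and 21%, and for Etfb 23.5%, almost all of it with Etfbl. Acaa1b shares 12.4%, all of it with Acaa1a, and Acsl3 shares 10.7% with the overlapping gene Utp14b. Values of these genes may therefore hold counts of their partners or miss counts of their own.

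Levels of different genes can be compared only per length, so they are given first as CPM per kilobase of gene length (CPM per kb). In AL mice 1 to 8 the median level was highest in liver for 23 of the 44 genes, in muscle for 18 and in cortex for 3. Liver was led by Fabp1, a fatty acid binding protein, at 7176 to 12155 CPM per kb (median 9911), followed by the peroxisomal thiolase Acaa1b at 627 to 1436 CPM per kb (median 995). Next stood the carrier Slc27a2 at 236 to 396 CPM per kb (median 303) and the mitochondrial thiolase Acaa2 at 212 to 419.7 CPM per kb (median 297), whose ranges overlap widely. Fabp3, the binding protein of muscle, led there with 859 to 2103 CPM per kb (median 1029). Acadl, the dehydrogenase for long chains, came next with 143 to 207 CPM per kb (median 154), within the spread of Acaa2 and of Crat, which moves acetyl groups to carnitine. Cortex also had Fabp3 on top, at 73.2 to 100.2 CPM per kb (median 86.7), and behind it Acsl3, Cpt1c and Slc27a1 had overlapping ranges with medians of 18.3, 17.6 and 17.1 CPM per kb.

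**Figure D1:**
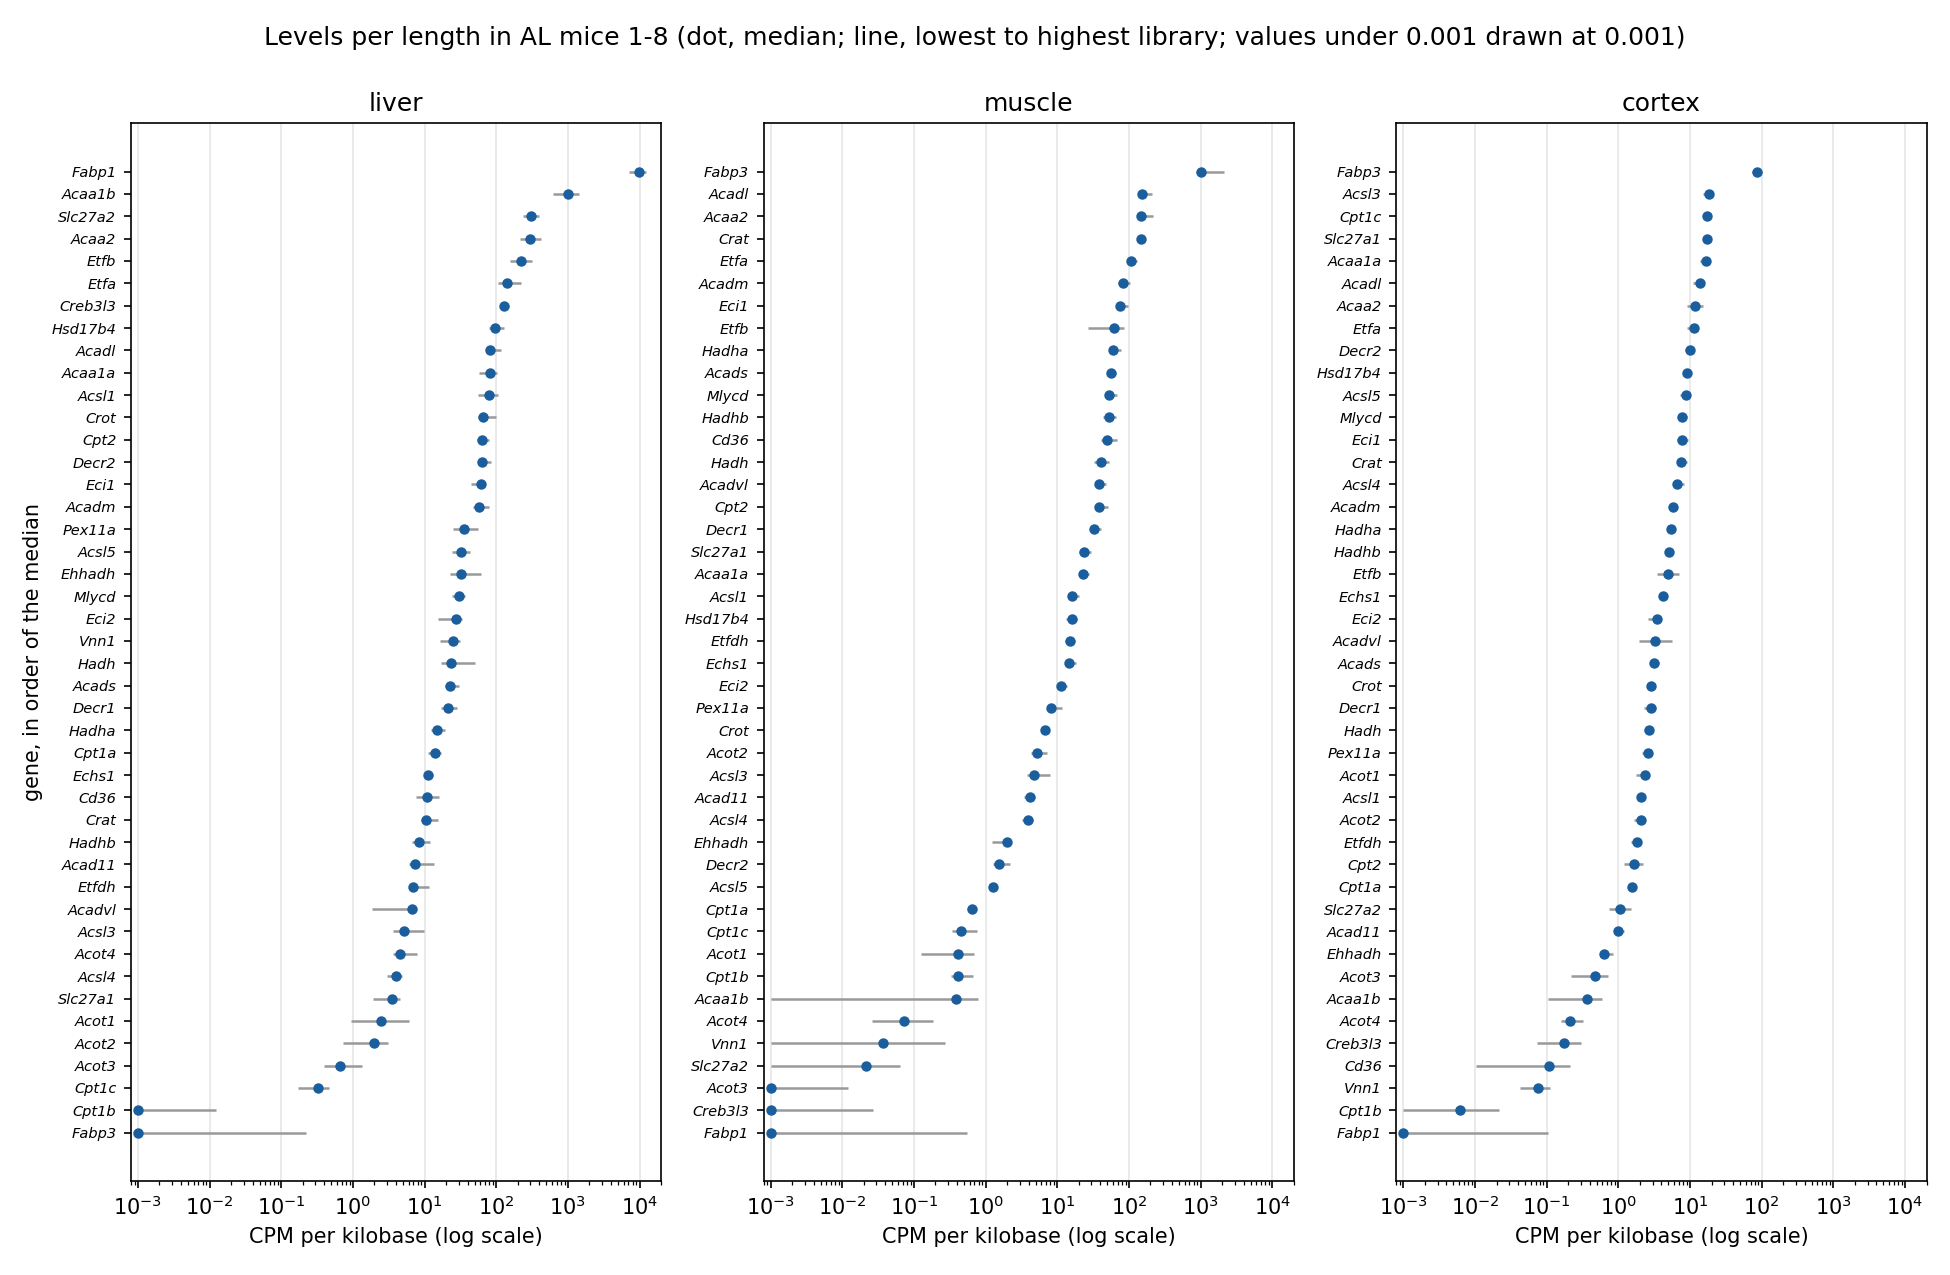
Median level of each of the 44 genes in AL mice 1 to 8, in CPM per kb on a logarithmic axis, by tissue and in order of the median. Lines run from the lowest to the highest library. Fabp1 stands at 9911 CPM per kb in liver, and Fabp3 at 1029 in muscle.

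The 3 forms of carnitine palmitoyltransferase 1 were spread over the tissues unevenly. Cpt1a, known as the liver form, stood at 11.2 to 17.2 CPM per kb (median 14.1) in AL liver, where Cpt1c reached at most 0.466 CPM per kb and Cpt1b at most 0.0124. In AL muscle Cpt1a stood at 0.557 to 0.765 CPM per kb (median 0.656), Cpt1b at 0.329 to 0.668 CPM per kb (median 0.417) and Cpt1c at 0.344 to 0.763 CPM per kb (median 0.449), so all 3 ranges overlap. Cpt1b shares 54.1% of its stretches with the overlapping gene model Gm44502, so its counts may miss reads of its own. Its place among the 3 forms is therefore not settled by these counts. Cpt1c, known as the brain form, led in cortex with 16.4 to 19 CPM per kb (median 17.6) against 1.39 to 1.76 CPM per kb (median 1.58) for Cpt1a. Cpt2, the partner enzyme inside the mitochondrion, stood at 53.9 to 80.0 CPM per kb (median 63.6) in liver, 35 to 51.3 CPM per kb (median 37.9) in muscle and 1.2 to 2.24 CPM per kb (median 1.66) in cortex.

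The study's question in each tissue is what intermittent fasting does to gene expression. In liver of mice 1 to 16, edgeR's quasi-likelihood test at a Benjamini-Hochberg adjusted p under 0.05 found 28 of the 42 genes tested higher under IF and 3 lower. Of all 16204 genes tested there, 44.6% passed, 23.5% as higher and 21.1% as lower. The median log2 fold change of IF over AL was 0.81 over the 42 genes and 0.060 over all genes. In 19 of the 42 every IF mouse lay above every AL mouse, while the groups did not overlap for 14.9% of all genes, 7.44% with IF higher. In all 28 genes that rose, at least 7 of 8 IF mice lay above the AL median, an outcome favoured by their having been chosen for passing in these mice. Cpt1b and Fabp3 had too few counts to be tested. Thioesterases rose most, most enzymes of mitochondrial and peroxisomal beta-oxidation rose, and uptake and activation genes went both ways.

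**Figure D2:**
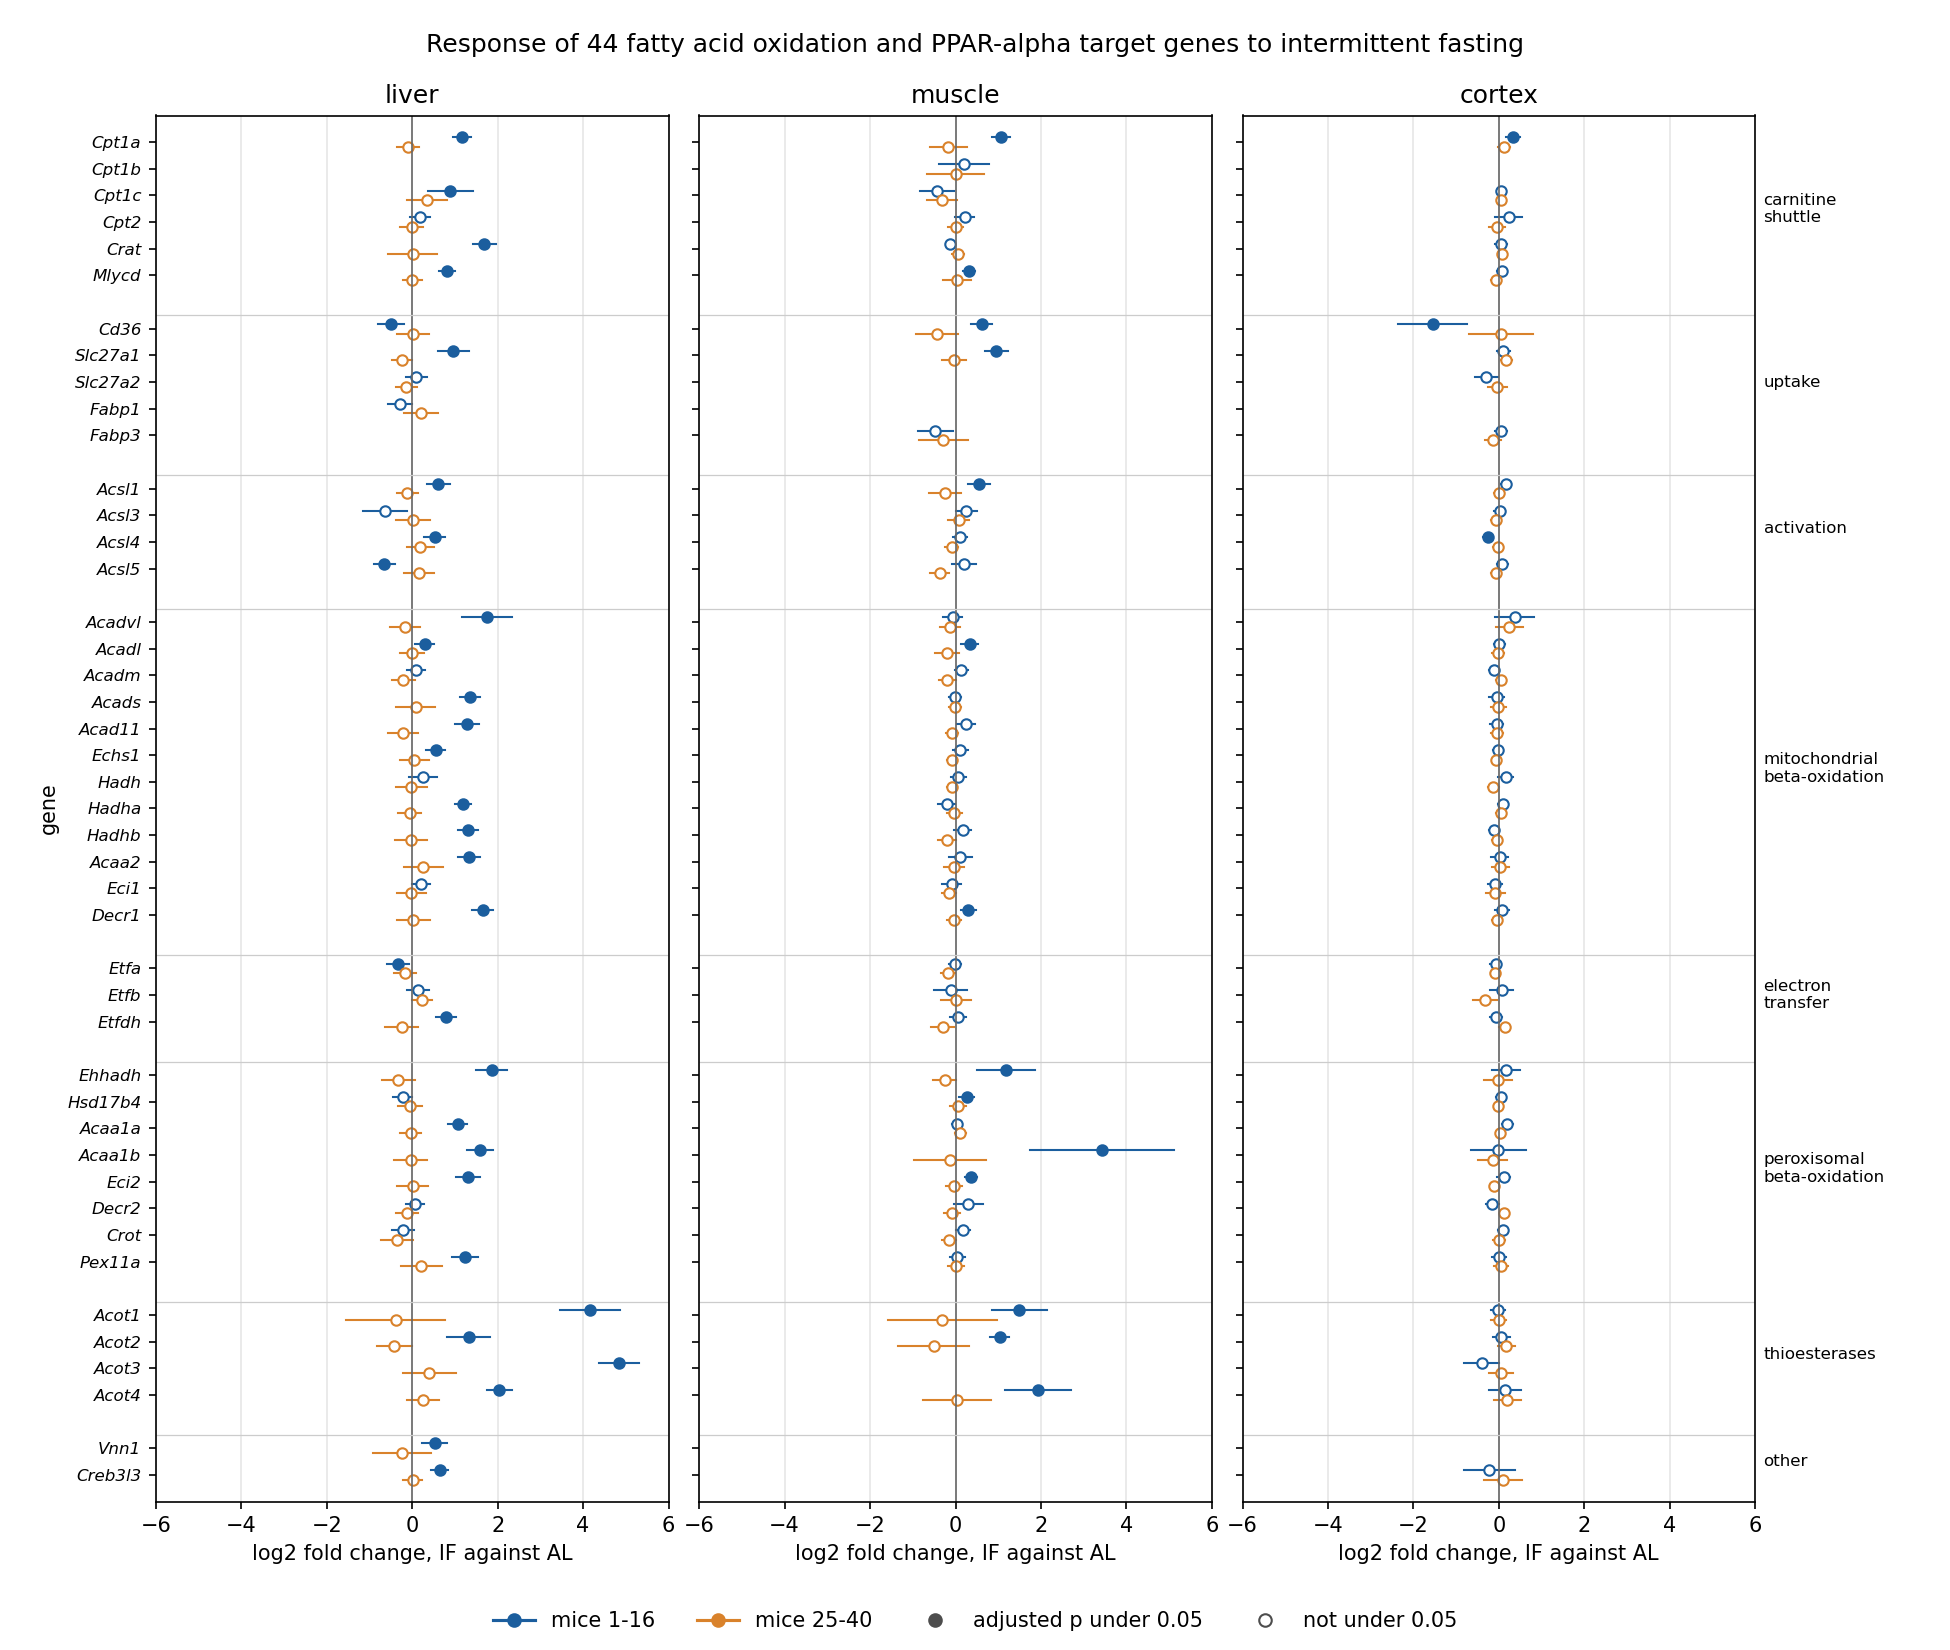
Log2 fold change of IF over AL for each gene tested, by tissue, in mice 1 to 16 (blue) and mice 25 to 40 (orange). Lines are 95% intervals, and filled points mark an adjusted p under 0.05, which 31 genes reached in liver, 14 in muscle and 3 in cortex of mice 1 to 16 and none in mice 25 to 40.

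Of the 5 genes of the carnitine shuttle tested in liver of mice 1 to 16, 4 rose and 0 fell, with a median log2 fold change of 0.89. Cpt1a (ENSMUSG00000024900, chromosome 19 from 3372334 to 3435733), which joins long-chain fatty acids to carnitine at the outer mitochondrial membrane, was at 76.3 to 119 CPM (median 96.1) in AL mice and 177 to 279 CPM (median 221) in IF mice. All 8 IF mice stood above all 8 AL mice (log2 fold change 1.17, SE 0.11, adjusted p = 7.91e-09). Crat, which makes acetylcarnitine, was at 42.9 to 75.5 CPM (median 49.7) in AL mice and 118 to 209 CPM (median 166) in IF mice, again with no overlap (log2 fold change 1.69, SE 0.14, adjusted p = 9.63e-10). Mlycd, which breaks down the Cpt1 inhibitor malonyl-CoA, also had all IF mice on top, at 64 to 95.9 CPM (median 80.9) in AL mice and 129 to 160.5 CPM (median 148) in IF mice (log2 fold change 0.82, SE 0.10, adjusted p = 1.91e-07). Cpt2 (ENSMUSG00000028607, chromosome 4 from 107761178 to 107780807) was at 116 to 172 CPM (median 136) in AL mice and 114 to 194 CPM (median 160.3) in IF mice. Its groups overlapped and it did not pass, though 7 of 8 IF mice were above the AL median (log2 fold change 0.18, SE 0.12, adjusted p = 0.212). Cpt1c (ENSMUSG00000007783, chromosome 7 from 44608796 to 44624275) stood low, at 0.847 to 2.32 CPM (median 1.61) in AL mice and 1.18 to 4.73 CPM (median 3) in IF mice, with overlapping groups and 7 of 8 IF mice above the AL median (log2 fold change 0.89, SE 0.27, adjusted p = 0.00841). Cpt1b held at most 1 count in AL livers and 0 to 19 in IF livers, 0 to 0.0368 CPM (median 0) in AL mice and 0 to 0.518 CPM (median 0.0488) in IF mice, too few for a fold change.

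Uptake and activation of fatty acids did not share a direction. Of 4 uptake and binding genes tested in liver of mice 1 to 16, the carrier Slc27a1 rose, to 20.5 to 49.8 CPM (median 30.2) from 10.1 to 23.2 CPM (median 18.1) (log2 fold change 0.96, SE 0.18, adjusted p = 0.000206, 8 of 8 IF mice above the AL median). Cd36, a fatty acid translocase, fell by 0.50 on the log2 scale from 24.3 to 50.9 CPM (median 34.3) to 19.1 to 35.3 CPM (median 25.5) (SE 0.16, adjusted p = 0.0136, 7 of 8 IF mice below the AL median). For Fabp1 and Slc27a2 the log2 fold changes of −0.29 and 0.091 did not pass (adjusted p = 0.101 and 0.584). Among the 4 acyl-CoA synthetases, which activate fatty acids, Acsl1 was higher at 532 to 986 CPM (median 732) in AL mice and 841 to 1495 CPM (median 1101) in IF mice (log2 fold change 0.61, SE 0.14, adjusted p = 0.000878). Acsl4 (ENSMUSG00000031278, chromosome X from 141100989 to 141173531), known for arachidonic acid, was at 14.6 to 23.8 CPM (median 19.1) in AL mice and 21 to 37.5 CPM (median 27.7) in IF mice. Its groups overlapped, with all 8 IF mice above the AL median (log2 fold change 0.52, SE 0.12, adjusted p = 0.00139). Acsl5 fell by 0.65 (SE 0.13, adjusted p = 0.000204), all 8 IF mice lying below the AL median, and Acsl3 was at −0.65 without passing (adjusted p = 0.0546).

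Mitochondrial beta-oxidation had 9 of 12 genes higher in liver of mice 1 to 16 and 0 lower. The median log2 fold change was 1.23, and in 6 genes the groups did not overlap. Those 6 were Acads, the dehydrogenase for short chains, Acad11, Hadha and Hadhb, the subunits of the trifunctional protein, Acaa2 and the dienoyl-CoA reductase Decr1. The largest change of the group was that of Acadvl (ENSMUSG00000018574, chromosome 11 from 69901009 to 69906237), the dehydrogenase for very long chains, at 4.55 to 18.5 CPM (median 16) in AL mice and 18.2 to 66.4 CPM (median 44.5) in IF mice. Only the ends of its groups met, AL mouse 4 at 18.5 CPM standing just above IF mouse 10 at 18.2 (log2 fold change 1.74, SE 0.30, adjusted p = 0.000161). Decr1 was at 57.3 to 99.4 CPM (median 73.1) in AL mice and 175 to 291 CPM (median 233) in IF mice (log2 fold change 1.65, SE 0.12, adjusted p = 2.81e-10). Hadha and Hadhb moved by nearly the same amount, 1.19 (SE 0.10, adjusted p = 1.82e-09) and 1.31 (SE 0.12, adjusted p = 7.07e-09). Echs1, the enoyl-CoA hydratase, rose less (log2 fold change 0.55, SE 0.11, adjusted p = 0.000345, 7 of 8 IF mice above the AL median), and Acadl least of all that passed (log2 fold change 0.29, SE 0.11, adjusted p = 0.0333, 7 of 8). The genes Acadm, Eci1 and Hadh did not pass, with log2 fold changes of 0.086, 0.20 and 0.25.

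Electron transfer from these dehydrogenases runs through the flavoprotein of Etfa and Etfb to its oxidoreductase Etfdh. In liver of mice 1 to 16 Etfdh rose from 39.9 to 78.5 CPM (median 47) to 79.6 to 111 CPM (median 87.9) with no overlap (log2 fold change 0.79, SE 0.12, adjusted p = 7.95e-06). Etfa went the other way, falling by 0.33 (SE 0.13, adjusted p = 0.0499) with all 8 IF mice below the AL median, and Etfb did not pass at 0.12 (adjusted p = 0.463).

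Peroxisomal beta-oxidation had 5 of 8 genes higher and 0 lower in the same livers, all 5 without overlap, and its median log2 fold change was 1.15. Ehhadh (ENSMUSG00000022853, chromosome 16 from 21580037 to 21606557), the peroxisomal bifunctional enzyme and a classic PPAR-alpha target, was at 61.5 to 162 CPM (median 84) in AL mice and 235 to 478 CPM (median 359) in IF mice. The lowest IF liver, that of mouse 11, exceeded the highest AL liver, that of mouse 1 (log2 fold change 1.86, SE 0.19, adjusted p = 4.65e-08). Acaa1b (ENSMUSG00000010651, chromosome 9 from 118977091 to 118986161), a thiolase of peroxisomes, was at 1104 to 2484 CPM (median 1738) in AL mice and 3955 to 7255 CPM (median 5589) in IF mice. Here too each IF mouse stood above each AL mouse (log2 fold change 1.59, SE 0.16, adjusted p = 1.67e-08). Its close relative Acaa1a changed by 1.06 (SE 0.11, adjusted p = 2.74e-08), the isomerase Eci2 by 1.31 (SE 0.15, adjusted p = 1.09e-07) and Pex11a, which takes part in the division of peroxisomes, by 1.24 (SE 0.15, adjusted p = 5.21e-07). No call was made for Hsd17b4, Crot or Decr2, at −0.22, −0.22 and 0.063.

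All 4 acyl-CoA thioesterases, which release free fatty acids from coenzyme A, rose in liver of mice 1 to 16, with a median log2 fold change of 3.10. Acot3 (ENSMUSG00000021228, chromosome 12 from 84098918 to 84107176), a peroxisomal form, was at 1.2 to 4.15 CPM (median 2) in AL mice and 55.5 to 89.1 CPM (median 66.4) in IF mice. That is the largest change of the 42 genes, with a wide gap between the groups (log2 fold change 4.84, SE 0.23, adjusted p = 5.42e-12). Acot1 (ENSMUSG00000072949, chromosome 12 from 84056264 to 84065145), the cytosolic form, was at 3.28 to 21.5 CPM (median 8.64) in AL mice and 143 to 265 CPM (median 162) in IF mice. Its IF livers lay between 143 and 265 CPM, with mouse 14 far above the rest, and none near the highest AL liver (log2 fold change 4.16, SE 0.36, adjusted p = 1.32e-07). Acot4 (ENSMUSG00000052392, chromosome 12 from 84085153 to 84095375), a peroxisomal form, was at 21.7 to 47.5 CPM (median 26.8) in AL mice and 102 to 159 CPM (median 119) in IF mice, also without overlap (log2 fold change 2.04, SE 0.15, adjusted p = 1.94e-10). The mitochondrial Acot2 stood lower and overlapped slightly, at 1.42 to 6.13 CPM (median 3.92) in AL mice and 5.78 to 18 CPM (median 9.21) in IF mice (log2 fold change 1.32, SE 0.26, adjusted p = 0.000216, 8 of 8 IF mice above the AL median). With erythrocyte marker levels in the fit Acot2 stood at 0.76 (adjusted p = 0.0791) and did not pass. Of the remaining target genes of PPAR-alpha in the set, the liver transcription factor Creb3l3 rose without overlap (log2 fold change 0.65, SE 0.10, adjusted p = 1.64e-05) and the pantetheinase Vnn1 rose with overlap (log2 fold change 0.52, SE 0.15, adjusted p = 0.00558, 8 of 8).

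**Figure D3:**
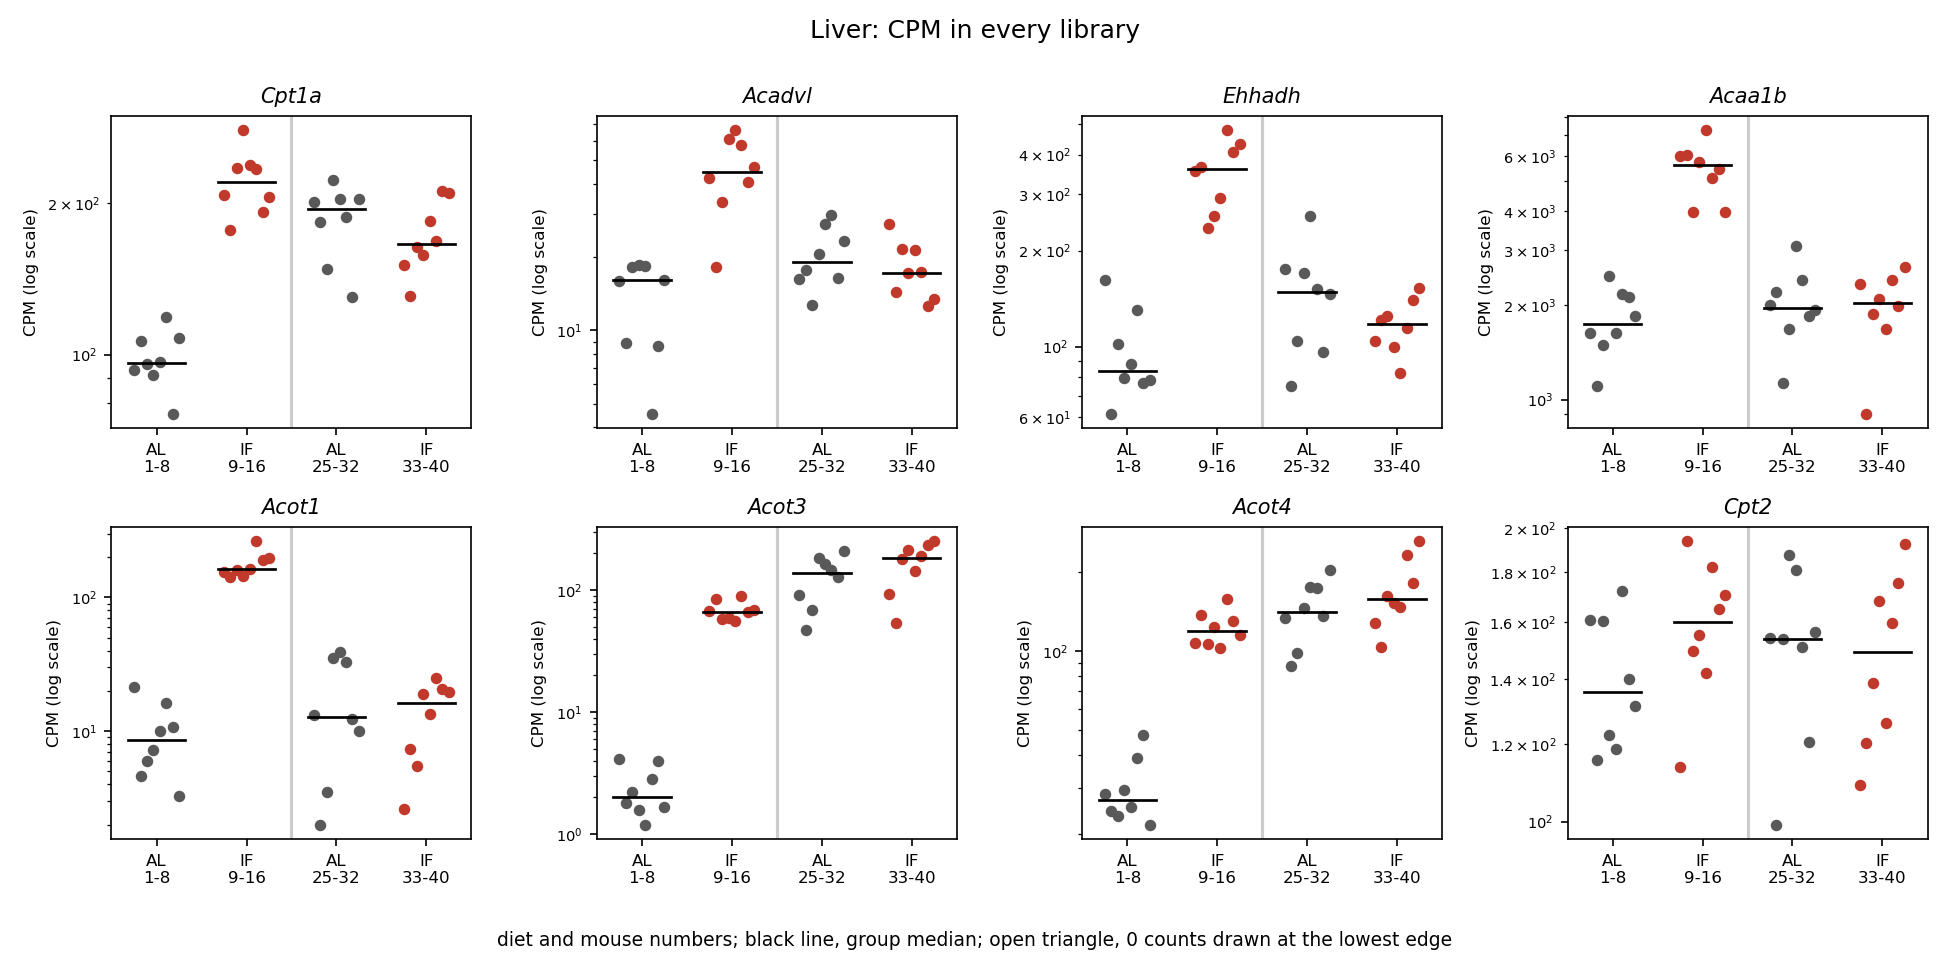
CPM of 8 genes in each liver library on a logarithmic axis, AL in grey and IF in red, with the median as a black line, for mice 1 to 16 and mice 25 to 40. In mice 1 to 16 Acot3 lies at 1.2 to 4.15 CPM in AL and 55.5 to 89.1 CPM in IF, and in mice 25 to 40 the diets overlap for every gene drawn.

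Other genes of the pathway moved in the same livers. Of 26 further fatty acid oxidation genes tested, 11 rose and 5 fell, with a median log2 fold change of 0.28. Over all genes tested there 23.5% rose and 21.1% fell, and in 7.44% all IF mice lay above all AL mice. The share of this list that fell is near that background. The carnitine carrier Slc22a5 had the largest rise of that list, 2.17 (SE 0.15, adjusted p = 8.45e-11), followed by Acot12 at 1.17 (SE 0.10, adjusted p = 1.97e-09) and Acot8 and Slc27a4, both at 1.14. Slc25a20, which carries acylcarnitine across the inner membrane, rose by 0.52 (SE 0.10, adjusted p = 0.000233). Lower were Nudt7, Amacr, Acox2, Scp2 and Acad9. Among 13 further PPAR-alpha targets 11 rose and 0 fell, 8 without overlap, with a median of 1.44: the fatty acid hydroxylase Cyp4a14 by 3.99 (SE 0.42, adjusted p = 1.43e-06), the lipase inhibitor Angptl4 by 2.83 (SE 0.27, adjusted p = 1.91e-07), Cyp4a31 by 1.98 (SE 0.23, adjusted p = 2.42e-07), the lipid droplet protein Plin5 by 1.86 (SE 0.21, adjusted p = 3.89e-07) and Pdk4, which holds back glucose oxidation, by 1.75 (SE 0.18, adjusted p = 3.03e-08). In each of these 5 genes, 8 of 8 IF mice lay above the AL median.

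The hormone Fgf21 rose as well, with overlap (log2 fold change 0.99, SE 0.37, adjusted p = 0.0383, 8 of 8 IF mice above the AL median). Its call is near the threshold, being lost at 0.96 (adjusted p = 0.0835) with no filter, 1.12 (adjusted p = 0.13) with the erythrocyte markers in the fit and 1.10 (adjusted p = 0.054) without IF mice 9 and 10, over an adjusted p range of 0.00948 to 0.13. Of 9 regulators 5 rose and 2 fell, beside 23.5% and 21.1% of all genes, with a median log2 fold change of 0.79. Ppara itself, the gene of PPAR-alpha, was at 7.46 to 13.3 CPM (median 10.6) in AL mice and 15.3 to 31.9 CPM (median 27.6) in IF mice without overlap (log2 fold change 1.24, SE 0.16, adjusted p = 8.67e-07). Lpin1, a coactivator, rose by 3.23 (SE 0.47, adjusted p = 5.42e-05), the receptor partner Rxra by 0.98 (SE 0.10, adjusted p = 2.59e-08) and the coactivator Ppargc1a by 0.79 (SE 0.27, adjusted p = 0.0174), with 8 of 8 IF mice above the AL median in each. Ppargc1a missed with the erythrocyte markers in the fit, at 0.89 (adjusted p = 0.0547), in a range of 0.0114 to 0.0547. Ppard fell by 1.67 (SE 0.23, adjusted p = 1.15e-05) and Pparg by 0.63 (adjusted p = 0.0253). The acetyl-CoA carboxylases, which make malonyl-CoA, did not pass, at −0.13 for Acaca and −0.28 for Acacb.

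Marker genes of other cells differed in these livers too. The 5 erythrocyte markers, none at 0 and Hba-a1 the most abundant, summed to 393 to 886 CPM (median 563) in AL mice and 665 to 6119.8 CPM (median 1966) in IF mice, and 3 of 5 were higher under IF. The 4 hepatocyte markers, Alb the most abundant and none at 0, summed to 42354 to 70164 CPM (median 54530.5) in AL mice and 32149.9 to 58733 CPM (median 44648) in IF mice, and 3 of 4 were lower. The 5 white adipocyte markers, Cfd the most abundant and Lep at 0 in IF mice, summed to 11.6 to 35.6 CPM (median 23.1) in AL mice and 0.555 to 1.91 CPM (median 1.09) in IF mice, and the 1 tested was lower. Cfd alone held a mean of 22.5 CPM of the mean sum of 22.6 CPM in AL mice, so this fall is that of a single gene. The 5 slow fibre markers, led by Tnnc1 and with Myh7 at 0 in AL mice, summed to 2.66 to 5.08 CPM (median 4.24) in AL mice and 10.1 to 20.1 CPM (median 12) in IF mice, and 1 of 2 tested was higher. Tnnc1 alone held a mean of 10.9 CPM of the mean sum of 12.9 CPM in IF mice. Of 4 endothelial and 4 macrophage markers, 1 each was higher. In bulk tissue, fewer cells of a type and less RNA per cell cannot be told apart. With the mean erythrocyte marker level in the fit, 5 of the 31 calls ended: Acot2 at 0.76 (adjusted p = 0.0791), Cpt1c at 0.93 (adjusted p = 0.0601), Acadl at 0.26 (adjusted p = 0.219), Etfa at −0.31 (adjusted p = 0.254) and Cd36 at −0.46 (adjusted p = 0.147). Those of Cpt1c, Acadl, Etfa and Cd36 stayed near their reported sizes of 0.89, 0.29, −0.33 and −0.50. Without IF mice 9 and 10, whose erythrocyte markers were highest, left out after their levels were seen, Etfa stood at −0.25 (adjusted p = 0.144) and Cd36 at −0.40 (adjusted p = 0.0635). Over the alternatives tried the adjusted p ran from 2.75e-06 to 0.0791 for Acot2, 0.00194 to 0.0601 for Cpt1c, 0.0246 to 0.254 for Etfa, 0.00502 to 0.147 for Cd36 and 0.014 to 0.219 for Acadl, which also missed with relative log expression (RLE) size factors at 0.26 (adjusted p = 0.0568), with no filter at 0.26 (adjusted p = 0.0797) and without AL mouse 2 and IF mouse 10 at 0.25 (adjusted p = 0.084). Acsl3 was called lower under RLE, with DESeq2, with at least 10 counts in each library and without IF mice 9 and 10, and Fabp1 without AL mouse 2 and IF mouse 10. The part of blood and of other cells in the remaining changes was not tested.

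In liver of mice 25 to 40 the same genes gave no such picture. By edgeR's quasi-likelihood test 0 of 42 genes passed, as did 0% of 15938 genes, and at an unadjusted p under 0.05 the count was still 0 of 42, beside 5.77% of all genes. DESeq2 called 0 of the 42 and 0.0376% of all genes. The median log2 fold change was −0.021 over the 42 genes and −0.0095 over all genes, and no gene of the set had groups without overlap, as 0.0251% of all genes had. Cpt1a was at 130.3 to 222 CPM (median 194) in AL mice and 131 to 212 CPM (median 166) in IF mice (log2 fold change −0.10, SE 0.13, adjusted p = 0.924). The diets cover the same span, with 2 of 8 IF mice above the AL median. Ehhadh was at 75.4 to 257 CPM (median 149) in AL mice and 82.5 to 152 CPM (median 118) in IF mice, and Acadvl at 12.6 to 29.8 CPM (median 19.2) in AL mice and 12.6 to 27.4 CPM (median 17.2) in IF mice, with log2 fold changes of −0.33 and −0.18. Of the thioesterases, Acot1 was at 1.99 to 39 CPM (median 12.7) in AL mice and 2.63 to 25 CPM (median 16.2) in IF mice and spread widely within both diets.

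Acot3 stood at 46.9 to 209 CPM (median 137) in AL mice and 53.9 to 253 CPM (median 184) in IF mice in these mice, and Acot4 at 87.9 to 203 CPM (median 141) in AL mice and 104 to 264 CPM (median 157) in IF mice. Neither passed (0.39 (SE 0.32, adjusted p = 0.882) and 0.25 (SE 0.19, adjusted p = 0.879), with 6 of 8 IF mice above the AL median in each). Acaa1b was at 1126 to 3083 CPM (median 1966) in AL mice and 899.9 to 2656 CPM (median 2036) in IF mice, with both diets on the same levels (log2 fold change −0.033, SE 0.20, adjusted p = 0.988). Cpt2 was at 99.3 to 187 CPM (median 154) in AL mice and 109 to 192 CPM (median 149) in IF mice, Cpt1c at 1.18 to 3 CPM (median 1.6) in AL mice and 1.88 to 3.72 CPM (median 2.18) in IF mice and Acsl4 at 13 to 23.5 CPM (median 18.2) in AL mice and 14.5 to 30.9 CPM (median 19.2) in IF mice, all overlapping. Cpt1b held 0 to 11 counts in AL and 0 to 22 in IF livers, 0 to 0.26 CPM (median 0) in AL mice and 0 to 0.59 CPM (median 0) in IF mice. Levels of the AL livers were not alike in the sets of mice: per length Acot3 stood at 14.4 to 63.9 CPM per kb (median 41.8) in AL mice 25 to 32 against 0.391 to 1.35 CPM per kb (median 0.651) in AL mice 1 to 8, without overlap, and Acot4 at 13.9 to 31.9 CPM per kb (median 22.3) against 3.64 to 7.96 CPM per kb (median 4.51). Cpt1a per length likewise stood higher, at 17.8 to 30.9 CPM per kb (median 26.8) against 11.2 to 17.2 CPM per kb (median 14.1). These level differences between the sets were not tested.

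Tested directly, the liver response differed between the sets of mice for 24 of 42 genes, 23 with a lower and 1 with a higher response in mice 25 to 40, where 23.7% of 17658 genes differed, 10.9% with a lower and 12.8% with a higher response. As differences in log2 fold change (mice 25 to 40 minus mice 1 to 16), the largest were those of Acot1, −4.51 (SE 0.71, adjusted p = 2.83e-05), Acot3, −4.41 (SE 0.43, adjusted p = 1.67e-08), Ehhadh, −2.15 (SE 0.29, adjusted p = 9.74e-07), Acadvl, −1.89 (SE 0.35, adjusted p = 0.000168), and Acot4, −1.75 (SE 0.25, adjusted p = 2.6e-06). For Cpt1a the difference was −1.24 (SE 0.17, adjusted p = 9.6e-07), and for Acaa1b −1.58 (SE 0.26, adjusted p = 2.09e-05). By role these were 3 of 5 in the carnitine shuttle, 1 of 4 in uptake, 2 of 4 in activation, 7 of 12 in mitochondrial beta-oxidation, 1 of 3 in electron transfer, 5 of 8 in peroxisomes, 4 of 4 thioesterases and 1 of 2 remaining targets, so that the shares in uptake and electron transfer are near the background. Acsl5 was the gene that went the other way, 0.84 (SE 0.23, adjusted p = 0.00641), having fallen in mice 1 to 16 only. With the erythrocyte markers in the fit the difference of Pex11a was lost, and 22 were lower and 1 higher. The median SE over the set was 0.182 in mice 25 to 40 and 0.13 in mice 1 to 16. For 30 of the 31 genes called in mice 1 to 16, the 95% interval in mice 25 to 40 leaves out the estimate of mice 1 to 16, whose own error that interval does not hold. Those genes were chosen for having passed in mice 1 to 16, which favours that outcome, so the count is no test of a difference. Other lists gave 9 of 26 further oxidation genes, 10 of 13 further PPAR-alpha targets, all 10 lower, and 6 of 9 regulators, among them Ppara at −1.23 (SE 0.25, adjusted p = 0.000268).

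Skeletal muscle of mice 1 to 16 had fewer genes of the set higher, and none lower: edgeR's test called 14 of 39 as higher and 0 as lower, against 23% of 15025 genes, 11.5% as higher and 11.6% as lower. The median log2 fold change was 0.20 over the 39 genes and 0.0059 over all. In all 14, 8 of 8 IF mice lay above the AL median, an outcome favoured by their having been chosen for passing in these mice. Cpt1a, Slc27a1, Cd36 and the 3 thioesterases tested rose, as did 4 of 8 peroxisomal genes, while 10 of 12 genes of mitochondrial beta-oxidation did not pass. In 4 genes, Cpt1a, Slc27a1, Acot1 and Acot2, all IF mice lay above all AL mice, beside 4.08% of all genes without overlap, 1.85% with IF higher. Not tested for low counts were Slc27a2, Fabp1, Acot3, Vnn1 and Creb3l3.

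Cpt1a in these muscles was at 3.18 to 4.41 CPM (median 3.74) in AL mice and 5.71 to 10.4 CPM (median 7.79) in IF mice, the lowest IF mouse being number 13 and the highest AL mouse number 1 (log2 fold change 1.06, SE 0.11, adjusted p = 5.83e-07). Slc27a1, the carrier of muscle and fat, was at 85 to 128 CPM (median 103) in AL mice and 152 to 327 CPM (median 182) in IF mice, likewise without overlap (log2 fold change 0.96, SE 0.14, adjusted p = 0.000151). Cd36 was at 109 to 182 CPM (median 134) in AL mice and 160.3 to 314 CPM (median 193) in IF mice. Its groups overlapped, but 8 of 8 IF mice were above the AL median (log2 fold change 0.61, SE 0.13, adjusted p = 0.00213). Mlycd rose by 0.31 (SE 0.070, adjusted p = 0.00289) and Acsl1 by 0.55 (SE 0.13, adjusted p = 0.00558), with the same 8 of 8. Cpt2 was at 62.2 to 92.1 CPM (median 68.1) in AL mice and 69.5 to 130.1 CPM (median 74.9) in IF mice, AL mouse 2 and IF mouse 12 standing far above the rest of their groups, and did not pass (log2 fold change 0.21, SE 0.11, adjusted p = 0.193). Cpt1b held 30 to 59 counts in AL and 19 to 91 in IF muscles, 0.811 to 1.67 CPM (median 1.06) in AL mice and 0.469 to 2.79 CPM (median 1.12) in IF mice. The IF mice span the AL range on both sides (log2 fold change 0.20, SE 0.30, adjusted p = 0.675, 4 of 8 above the AL median). Cpt1c was at 1.41 to 3.18 CPM (median 1.89) in AL mice and 1.07 to 2.54 CPM (median 1.41) in IF mice and Acsl4 at 13.2 to 17.9 CPM (median 15.5) in AL mice and 13.9 to 19.9 CPM (median 16.3) in IF mice, and neither passed (−0.44 (SE 0.21, adjusted p = 0.13) and 0.10 (SE 0.083, adjusted p = 0.428)).

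Among the enzymes, Acadl and Decr1 were the mitochondrial genes that passed in muscle, at 0.33 (SE 0.10, adjusted p = 0.0195) and 0.30 (SE 0.087, adjusted p = 0.0159), each with 8 of 8 IF mice above the AL median. Acadvl was at 70.8 to 97.5 CPM (median 77.3) in AL mice and 56.5 to 108 CPM (median 76.4) in IF mice and did not pass (log2 fold change −0.068, SE 0.11, adjusted p = 0.703), nor did any of the 3 electron transfer genes. Of 8 peroxisomal genes 4 rose: Acaa1b, Ehhadh, Eci2 and Hsd17b4. Acaa1b, at 0 counts in AL mouse 1, was at 0 to 1.14 CPM (median 0.575) in AL mice and 0.6 to 16.9 CPM (median 2.3) in IF mice, its highest IF value far above the IF median (log2 fold change 3.43, SE 0.86, adjusted p = 0.01, 8 of 8). Ehhadh was at 2.69 to 4.99 CPM (median 4.45) in AL mice and 4.67 to 21.2 CPM (median 5.96) in IF mice, where mouse 12 again stands apart (log2 fold change 1.18, SE 0.34, adjusted p = 0.0221, 8 of 8). Eci2 changed by 0.37 (SE 0.072, adjusted p = 0.000821) and Hsd17b4, a bifunctional enzyme of peroxisomes, by 0.27 (SE 0.091, adjusted p = 0.0385). The thioesterases rose together, 3 of 3 tested: Acot1 was at 0.363 to 2.01 CPM (median 1.24) in AL mice and 2.48 to 8.39 CPM (median 2.9) in IF mice (log2 fold change 1.5, SE 0.33, adjusted p = 0.00316), Acot2 changed by 1.03 (SE 0.12, adjusted p = 1.91e-06), and Acot4 was at 0.128 to 0.938 CPM (median 0.371) in AL mice and 0.74 to 4.06 CPM (median 1.65) in IF mice (log2 fold change 1.93, SE 0.40, adjusted p = 0.00162). For Acot4 the groups overlap but 8 of 8 IF mice lay above the AL median. Acot3 held at most 0.456 CPM, in IF mouse 12, with 0 to 0.0319 CPM (median 0) in AL mice and 0 to 0.456 CPM (median 0.132) in IF mice.

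Fat markers rose with these genes. The 5 white adipocyte markers, led by Cfd and none at 0, summed to 30.4 to 328 CPM (median 92.2) in AL mice and 107 to 1587 CPM (median 652) in IF mice, and 4 of 5 were higher under IF. The brown adipocyte markers Ucp1 and Cidea, Cidea the more abundant and neither at 0, summed to 0.192 to 4.77 CPM (median 1.08) in AL mice and 2.43 to 198 CPM (median 11.2) in IF mice, and the 1 tested was higher. IF mouse 12 was highest in both sums, and its summed myofibre markers were the lowest of the IF mice. It was also the highest IF mouse in 34 of the 39 genes of the set and in all 14 that passed. The share over all genes was not counted, and the 14 were chosen for being higher under IF, so nothing is read from these counts. The 5 slow fibre markers, led by Myl3 and none at 0, summed to 11.8 to 1947 CPM (median 802) in AL mice and 35.6 to 619 CPM (median 416) in IF mice, with 0 of 5 called; 1 of 4 myofibre markers was lower. With the white adipocyte markers in the fit 9 genes passed, 8 higher, Crot among them, and 1 lower, Hadha. Lost were Acaa1b at 1.34 (adjusted p = 0.18), Ehhadh at 0.70 (adjusted p = 0.273), Hsd17b4 at 0.12 (adjusted p = 0.419), Acsl1 at 0.38 (adjusted p = 0.0849), Acadl at 0.26 (adjusted p = 0.119), Mlycd at 0.21 (adjusted p = 0.0555) and Decr1 at 0.20 (adjusted p = 0.151).

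Without IF mice 9, 10 and 12, whose white adipocyte markers were highest and who were left out after those levels were seen, Acaa1b stood at 1.57 (adjusted p = 0.146), Ehhadh at 0.34 (adjusted p = 0.0849) and Hsd17b4 at 0.16 (adjusted p = 0.151), so these 3 calls were lost. Ehhadh also missed with the replicate number as a block, at 0.95 (adjusted p = 0.0506), and Hsd17b4 with the slow fibre markers in the fit, at 0.26 (adjusted p = 0.0503). In the fit without IF mice 9, 10 and 12, the set had 12 genes higher, Crot among them, and 3 lower: Crat, Eci1 and Hadha. DESeq2 on all 16 mice also called Crat lower. Acadl, Mlycd and Decr1 kept their calls there, and Acsl1 did at 0.35 (adjusted p = 0.00407), and Acot4 passed with both alternatives, at 1.13 (adjusted p = 0.0428) and 1.28 (adjusted p = 0.0179). Over the alternatives tried, the adjusted p ran from 0.0014 to 0.18 for Acaa1b, 0.00371 to 0.273 for Ehhadh, 0.0202 to 0.419 for Hsd17b4, 0.000135 to 0.0849 for Acsl1, 7e-06 to 0.0428 for Acot4, 0.00533 to 0.119 for Acadl, 0.000208 to 0.0555 for Mlycd and 0.00671 to 0.151 for Decr1. Cpt1a held at 0.94 to 1.06 under every alternative tried, Slc27a1 at 0.66 to 0.98 and Acot1 at 1.04 to 1.64, all past the threshold. The part of fat in the other changes was not tested.

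Of the other pathway genes in these muscles, 8 of 24 further oxidation genes rose and 2 fell, around a median log2 fold change of 0.11; largest were Acad10 at 0.76 (SE 0.13, adjusted p = 0.000324), Nudt7 at 0.61 (SE 0.12, adjusted p = 0.000872), Hacl1 at 0.60 and Abcd3 at 0.39. Hacl1 lost its call with the white adipocyte markers in the fit, at 0.33 (adjusted p = 0.284), and without IF mice 9, 10 and 12, at 0.48 (adjusted p = 0.104), in a range of 0.00964 to 0.284. Slc25a20 did not pass (0.12 (SE 0.089, adjusted p = 0.365)). Over all genes in these muscles 11.5% rose and 11.6% fell, and in 1.85% all IF mice lay above all AL mice. Further PPAR-alpha targets rose in 7 of 9 and fell in 0, 4 without overlap, with a median of 2.05. Pdk4 was at 114 to 340.3 CPM (median 213) in AL mice and 786 to 1665 CPM (median 1317) in IF mice, each IF mouse above each AL mouse (log2 fold change 2.58, SE 0.23, adjusted p = 1.99e-06). Angptl4 rose by 2.80 (SE 0.38, adjusted p = 0.000138) and the uncoupling protein Ucp3 by 2.16 (SE 0.18, adjusted p = 6.57e-07), again with no overlap. The droplet protein Cidec rose by 2.52 (SE 0.64, adjusted p = 0.0112), but only by 0.86 (adjusted p = 0.0042) with the white adipocyte markers in the fit and by 1.58 (adjusted p = 0.0937) without IF mice 9, 10 and 12, in an adjusted p range of 0.000186 to 0.0937. Ppara was scarce, at 0.535 to 1.63 CPM (median 0.684) in AL mice and 0.315 to 2.49 CPM (median 0.496) in IF mice, and did not pass (log2 fold change −0.27, SE 0.41, adjusted p = 0.685).

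Regulators in muscle counted 5 of 9 higher and 2 lower, beside 11.5% and 11.6% of all genes. Acaca, the carboxylase of fat synthesis, was at 7.92 to 17.3 CPM (median 9.01) in AL mice and 14.5 to 163 CPM (median 31.7) in IF mice (log2 fold change 2.40, SE 0.50, adjusted p = 0.0031, 8 of 8 IF mice above the AL median), and at 1.24 (adjusted p = 0.0814) with the white adipocyte markers in the fit, its adjusted p running from 3.42e-06 to 0.0814 over the alternatives. Acacb, the carboxylase at the mitochondrial surface, rose without overlap by 0.32 (SE 0.059, adjusted p = 0.00058), and Ppargc1a by 0.70 (SE 0.12, adjusted p = 0.000422). Pparg rose by 1.34 (SE 0.31, adjusted p = 0.00537) but missed with the white adipocyte markers in the fit, at 0.74 (adjusted p = 0.0683), in a range of 0.000292 to 0.0683. Ppard and Rxra fell by 0.40 and 0.34 on the log2 scale (adjusted p = 0.000504 and 0.000167).

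Muscle of mice 25 to 40 had 0 of 39 genes past edgeR's test, beside 0.00653% of 15308 genes, with 3 of 39 at an unadjusted p under 0.05, as 10.7% of all genes, and 0 by DESeq2, as 0.594% of all genes. The median log2 fold change was −0.086 over the 39 genes against −0.019 over all genes, and 0 of 39 genes had groups without overlap, beside 0.0784% of all genes. Cpt1a was at 3.15 to 10.4 CPM (median 5.96) in AL mice and 4.84 to 7.81 CPM (median 5.86) in IF mice, and Acot1 at 0.415 to 8.68 CPM (median 1.68) in AL mice and 0.174 to 4.26 CPM (median 1.95) in IF mice. High values fell in the AL group this time, Acot1 being highest in AL mouse 28. Neither passed (−0.16 (SE 0.22, adjusted p = 0.818) and −0.30 (SE 0.66, adjusted p = 0.896), with 2 and 4 of 8 IF mice above the AL median). Ehhadh was at 4.84 to 10.5 CPM (median 6.95) in AL mice and 4.03 to 7.08 CPM (median 6.07) in IF mice, Acaa1b at 0.166 to 1.38 CPM (median 0.569) in AL mice and 0.118 to 1.37 CPM (median 0.603) in IF mice and Acot4 at 0.159 to 0.816 CPM (median 0.461) in AL mice and 0.0691 to 0.755 CPM (median 0.509) in IF mice. All 3 genes overlapped between the diets, with log2 fold changes of −0.25, −0.13 and 0.043.

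Cpt2 in these muscles was at 58.1 to 90.1 CPM (median 70.7) in AL mice and 63.5 to 81.7 CPM (median 70.2) in IF mice, and Cpt1b, with 20 to 82 counts in AL and 21 to 70 in IF, at 0.582 to 1.85 CPM (median 0.894) in AL mice and 0.49 to 1.73 CPM (median 0.789) in IF mice. Cpt1c was at 1.47 to 3.27 CPM (median 2.19) in AL mice and 1.23 to 2.32 CPM (median 1.8) in IF mice. The diets overlapped in each of these genes and none passed, the median of Cpt1c being lower in IF mice. Acadvl was at 70.0 to 132 CPM (median 99.5) in AL mice and 71.4 to 114 CPM (median 90.9) in IF mice, Acsl4 at 17.3 to 24.3 CPM (median 19.9) in AL mice and 17.2 to 21.6 CPM (median 18.9) in IF mice and Acot3 at 0 to 0.113 CPM (median 0) in AL mice and 0 to 0.16 CPM (median 0) in IF mice. White adipocyte markers summed to 60.9 to 695 CPM (median 186) in AL mice and 13.7 to 443 CPM (median 181) in IF mice, and 0 of 5 were called.

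The muscle response differed between the sets for 11 of 40 genes, all 11 with a lower response in mice 25 to 40, where 14.2% of 16346 genes differed, 6.77% with a lower and 7.38% with a higher response. As differences in log2 fold change these were largest for Acaa1b, −3.54 (SE 0.98, adjusted p = 0.0146), Acot4, −1.86 (SE 0.58, adjusted p = 0.0263), Acot2, −1.52 (SE 0.45, adjusted p = 0.0209), Ehhadh, −1.42 (SE 0.37, adjusted p = 0.00857), and Cpt1a, −1.20 (SE 0.24, adjusted p = 0.000804). Cd36 followed at −1.03 (SE 0.28, adjusted p = 0.0134) and Slc27a1 at −0.97 (SE 0.20, adjusted p = 0.00139), with Acsl1, Acadl, Eci2 and Acsl5 behind them. The difference of Acaa1b was lost with the replicate number as a block, as was that of Acsl5, and those of Acaa1b, Acot4 and Acsl5 with the white adipocyte markers in the fit, where Acadm, Crot and Etfdh passed and the count stayed at 11. Acadl lost its own with RLE size factors. Of the 14 genes called in mice 1 to 16, the 95% interval in mice 25 to 40 leaves out the estimate of mice 1 to 16, whose own error it does not hold, for 13. These genes too were chosen for having passed. In cortex that count was 3 of 3, where the direct test found 0 of 42 genes that differed, so nothing is read from it. Further lists gave 9 of 25 oxidation genes, 6 of 9 PPAR-alpha targets, all 6 lower, and 5 of 9 regulators.

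Set side by side in mice 1 to 16, 12 of the 14 genes that rose in muscle were also among the 28 that rose in liver. As 28 of the 42 genes tested in liver rose there, and the overlap over all genes was not counted, nothing is read from that overlap. For 8 of those 12 no difference in response was called. Cpt1a is such a gene (−0.093 (SE 0.15, adjusted p = 0.671) as muscle minus liver, from 1.17 in liver and 1.06 in muscle). The response did differ for 24 of 44 genes, 18 with a lower and 6 with a higher response in muscle, where 34.2% of 18222 genes differed, 17.7% as lower and 16.5% as higher. Acot1 differed by −2.63 (SE 0.48, adjusted p = 8.27e-05), Crat by −1.80 (SE 0.15, adjusted p = 3.36e-11), Acadvl by −1.79 (SE 0.31, adjusted p = 3.71e-05), Hadha by −1.38 (SE 0.15, adjusted p = 4.62e-09) and Acads by −1.36 (SE 0.15, adjusted p = 1.43e-08). Of these 5, Acot1 rose in both tissues, and the others rose in liver and did not pass in muscle. Higher in muscle were Cd36, 1.13 (SE 0.21, adjusted p = 8.73e-05), Acsl3, 0.91 (SE 0.30, adjusted p = 0.0189), Acsl5, 0.87 (SE 0.20, adjusted p = 0.000784), Hsd17b4, 0.50 (SE 0.15, adjusted p = 0.00975), Crot, 0.41 (SE 0.15, adjusted p = 0.0371), and Slc27a2. No fold is given for Cpt1b or Slc27a2, which passed but hold almost no counts in 1 of the tissues. Liver and muscle libraries carry the same mouse numbers, and with the mouse number as a block 22 of 44 genes differed, without Crot and Acsl4. Without IF mice 9, 10 and 12 Hsd17b4 and Slc27a2 did not pass, and without AL mouse 2 and IF mouse 10 Acsl3, Acsl4 and Echs1 did not. Without IF mice 9, 10 and 12 Ehhadh and Eci1 newly passed with a lower response in muscle, and with DESeq2 Acaa1b did with a higher one. Ehhadh and Acaa1b are among the 8 genes without a called difference. Further lists gave 13 of 27 oxidation genes, 6 of 14 PPAR-alpha targets and 7 of 9 regulators, Ppara at −1.44 (SE 0.44, adjusted p = 0.00977) and Acaca at 2.55 (SE 0.48, adjusted p = 0.000127) among them. In mice 25 to 40 edgeR's test found 0 of 44 genes, beside 0.0109% of 18311 genes, with 3 of 44 at an unadjusted p under 0.05, beside 6.05% of all genes, and 0 by DESeq2, beside 0.289%.

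Cortex of mice 1 to 16 held few changes in the set: of 41 genes tested, Cpt1a rose and Cd36 and Acsl4 fell, beside 7.21% of 18462 genes, 3.79% as higher and 3.43% as lower. That share of the set is near the background. The median log2 fold change was 0.053 over the 41 genes and −0.0049 over all genes, and 0 of 41 had groups without overlap, beside 1.05% of all genes. Cpt1b, Fabp1 and Vnn1 had too few counts to be tested. Cpt1a was at 15 to 19.4 CPM (median 17.3) in AL mice and 17.9 to 26.7 CPM (median 21.2) in IF mice, overlapping at the ends with all 8 IF mice above the AL median (log2 fold change 0.34, SE 0.084, adjusted p = 0.0208). Acsl4 was at 50.8 to 62.8 CPM (median 52.1) in AL mice and 43.3 to 51.4 CPM (median 44.6) in IF mice, with all 8 IF mice below the AL median (log2 fold change −0.26, SE 0.058, adjusted p = 0.013). Cd36, with 2 to 42 counts in AL and 4 to 11 in IF mice, was at 0.0542 to 1.08 CPM (median 0.564) in AL mice and 0.118 to 0.339 CPM (median 0.205) in IF mice, so that the AL mice alone reach high values (log2 fold change −1.55, SE 0.41, adjusted p = 0.0285, 8 of 8 IF mice below the AL median).

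Cpt1c was at 133 to 155 CPM (median 143) in AL mice and 133 to 165 CPM (median 149) in IF mice and Cpt2 at 4.05 to 7.72 CPM (median 5.78) in AL mice and 4.7 to 9.64 CPM (median 6.32) in IF mice, both overlapping (0.060 (SE 0.057, adjusted p = 0.572) and 0.23 (SE 0.16, adjusted p = 0.406)). Cpt1b held 0 to 4 counts in AL and 0 to 11 in IF cortex, 0 to 0.106 CPM (median 0.0297) in AL mice and 0 to 0.324 CPM (median 0.0289) in IF mice. Acadvl was at 7.63 to 21.7 CPM (median 12.7) in AL mice and 9.42 to 27.4 CPM (median 18.5) in IF mice. None of these passed, nor did the following genes that rose in liver: Ehhadh was at 2.33 to 3.61 CPM (median 2.76) in AL mice and 1.57 to 4 CPM (median 3.26) in IF mice, Acaa1b at 0.297 to 1.65 CPM (median 1.05) in AL mice and 0.384 to 1.86 CPM (median 0.995) in IF mice and Acot1 at 10.2 to 14.5 CPM (median 13.3) in AL mice and 11.7 to 14.2 CPM (median 12.7) in IF mice. Acot3 was at 1.08 to 3.44 CPM (median 2.34) in AL mice and 1.1 to 2.45 CPM (median 1.89) in IF mice and Acot4 at 1.52 to 3.03 CPM (median 2.09) in AL mice and 1.74 to 3.33 CPM (median 2.06) in IF mice. In all of them the diets overlapped, with adjusted p of 0.574, 0.992, 0.927, 0.249 and 0.687 and log2 fold changes from −0.40 to 0.18.

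Choroid plexus markers set some cortex libraries apart. The 4 markers, led by Ttr and none at 0, summed to 5.04 to 3178 CPM (median 29.8) in AL mice and 4.46 to 3508 CPM (median 16.8) in IF mice, with AL mouse 4 and IF mouse 11 the highest and 0 of 4 called. The 4 oligodendrocyte markers, led by Mbp and none at 0, summed to 3661 to 5755 CPM (median 4369) in AL mice and 5025 to 8282 CPM (median 6629) in IF mice, and 3 of 4 were higher under IF, while 1 of 5 astrocyte and 1 of 4 endothelial markers was lower and 0 of 4 neuron and 0 of 4 microglia markers were called. Of the 5 white adipocyte markers, led by Retn and with Cfd at 0 in AL mice, the 1 tested was lower. They summed to 1.62 to 2.85 CPM (median 1.79) in AL mice and 0.608 to 1.51 CPM (median 1.26) in IF mice. Retn alone held a mean of 1.85 CPM of the mean sum of 1.97 CPM in AL mice. Without AL mouse 4 and IF mice 11 and 14, left out after their choroid plexus levels were seen, none of the 3 genes passed: Cpt1a stood at 0.31 (adjusted p = 0.078), Acsl4 at −0.25 (adjusted p = 0.0786) and Cd36 at −1.54 (adjusted p = 0.122). Without AL mouse 2 and IF mouse 10 they stood at 0.33 (adjusted p = 0.0514), −0.22 (adjusted p = 0.0543) and −1.37 (adjusted p = 0.109). With the replicate number as a block Acsl4 stood at −0.26 (adjusted p = 0.0648) and Cd36 at −1.39 (adjusted p = 0.0832), and Cpt1a alone passed. Over the alternatives tried, adjusted p ran from 0.00345 to 0.078 for Cpt1a, 0.00118 to 0.0786 for Acsl4 and 0.00829 to 0.122 for Cd36, so all 3 calls are near the threshold. The part of other cells in them was not tested.

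Other lists had 1 gene each called in cortex of mice 1 to 16, all higher: Acox3 of 25 further oxidation genes (log2 fold change 0.40, SE 0.086, adjusted p = 0.0103), Angptl4 of 8 PPAR-alpha targets, at 1.84 to 3.98 CPM (median 2.4) in AL mice and 3.16 to 7.53 CPM (median 5.21) in IF mice (log2 fold change 0.97, SE 0.18, adjusted p = 0.00492), and Acacb of 8 regulators (log2 fold change 0.85, SE 0.16, adjusted p = 0.00527), each with 8 of 8 IF mice above the AL median. Over all genes 7.21% were called there, so 1 call in lists of these lengths is near the background. Acox3 and Angptl4 missed without AL mouse 4 and IF mice 11 and 14, at 0.35 (adjusted p = 0.0812) and 0.89 (adjusted p = 0.0516), in ranges of 0.00041 to 0.0812 and 1.77e-05 to 0.0516 over the alternatives.

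In cortex of mice 25 to 40 edgeR's test found 0 of 41 genes, beside 0.0109% of 18403 genes, with 3 of 41 at an unadjusted p under 0.05, beside 11.2% of all genes, and 0 by DESeq2, beside 0.397%. The median was −0.010 against 0.0031 over all genes, and 0 of 41 genes had groups without overlap, beside 0.0598% of all genes. Cpt1a was at 16.7 to 21.4 CPM (median 18.8) in AL mice and 16.7 to 23.9 CPM (median 21.2) in IF mice (log2 fold change 0.13, SE 0.075, adjusted p = 0.51, 7 of 8 IF mice above the AL median). Acsl4 was at 38.6 to 48.9 CPM (median 47.5) in AL mice and 40.6 to 52.5 CPM (median 45) in IF mice and Cpt1c at 136 to 154 CPM (median 146) in AL mice and 139 to 171 CPM (median 149) in IF mice. The diets overlapped in each of them. Cpt2 was at 5.47 to 6.8 CPM (median 6.2) in AL mice and 4.86 to 7.7 CPM (median 5.72) in IF mice, and Acadvl at 12.4 to 25.1 CPM (median 15.5) in AL mice and 12.4 to 25.2 CPM (median 20.9) in IF mice. Ehhadh was at 1.43 to 3.82 CPM (median 2.74) in AL mice and 1.98 to 3.53 CPM (median 2.77) in IF mice and Acaa1b at 1.08 to 1.92 CPM (median 1.46) in AL mice and 0.888 to 1.87 CPM (median 1.32) in IF mice. Cpt1b held 0 to 3 counts in AL and 0 to 6 in IF mice, 0 to 0.0863 CPM (median 0) in AL mice and 0 to 0.158 CPM (median 0.0568) in IF mice.

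Of the thioesterases in these cortices, Acot1 was at 11.5 to 13.5 CPM (median 11.8) in AL mice and 10.9 to 17.8 CPM (median 11.3) in IF mice, IF mouse 36 standing far above the others, Acot3 at 1.86 to 2.67 CPM (median 2.34) in AL mice and 1.58 to 3.05 CPM (median 2.4) in IF mice and Acot4 at 1.7 to 2.61 CPM (median 2.29) in AL mice and 1.7 to 3.73 CPM (median 2.37) in IF mice. None of the 3 passed. Mouse 36 also had the highest choroid plexus sum, 4420 CPM. The response of cortex differed between the sets for 0 of 42 genes by edgeR's test, beside 2.03% of 19547 genes, with 9 of 42 at an unadjusted p under 0.05, beside 15.4% of all genes, and 0 by DESeq2, beside 3.61%. Among the other lists 1 of 8 PPAR-alpha targets differed, Angptl4 at −1.06 (SE 0.25, adjusted p = 0.0222), and 0 of 25 oxidation genes and 0 of 9 regulators. In liver, muscle and cortex of mice 25 to 40 the further oxidation genes, PPAR-alpha targets and regulators likewise had 0 calls.

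Within a group of mice the genes of the set varied together to different degrees. Taking each gene's log2 CPM less its group mean, the median Pearson r over pairs of genes was 0.25 in liver of mice 1 to 16 and 0.56 in liver of mice 25 to 40, 0.48 and 0.31 in muscle, and 0.044 and 0.061 in cortex, over 16 libraries each (15 in cortex of mice 1 to 16). The points share library and depth, and the values are a description. Hadha and Hadhb, neighbours on chromosome 5 whose products form a single complex, had r of 0.73 and 0.86 in liver, 0.73 and 0.91 in muscle and 0.47 and 0.50 in cortex. The gene with the highest median r to the rest was Hsd17b4 in both sets of liver, Cd36 in muscle of mice 1 to 16 and Acaa2 in muscle of mice 25 to 40. Lowest were Cpt1c and Acsl3 in liver and Crot and Acaa1b in muscle.

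PPAR-alpha and its partner bind a repeat of AGGTCA with a base between, so the stretch from 250 bases before to 50 after the start of each gene was searched on both strands in RefSeq sequence of GRCm38.p6, which held 38 of the 44 genes in 43 windows. The full letters AGGTCANAGGTCA were in 0 of the 43 windows and in 0.0396% of 32851 windows of all genes. With a base freed in each part, AGGNCANAGGNCA was in 1 window, that of Fabp1, and in 0.381% of all windows, and the shortened AGGTCANAGG, which overlaps the full letters, in 1, that of Slc27a2, and in 0.658%. Matches are descriptions of letters, and a window without a match says nothing of the receptor. The 250 bases before both starts are shown because these are the genes with a match, with the match in capitals, which reads on the minus strand 67 bases before the start of Fabp1 (chr6:71199629-71199878, plus strand) and 224 before that of Slc27a2 (chr2:126552774-126553023, plus strand). Neither gene passed the liver test.
Fabp1: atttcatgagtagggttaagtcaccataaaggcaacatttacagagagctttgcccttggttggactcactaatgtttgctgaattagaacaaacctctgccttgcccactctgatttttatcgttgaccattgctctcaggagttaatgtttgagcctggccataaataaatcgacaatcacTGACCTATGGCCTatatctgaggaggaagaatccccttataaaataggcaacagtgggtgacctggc
Slc27a2: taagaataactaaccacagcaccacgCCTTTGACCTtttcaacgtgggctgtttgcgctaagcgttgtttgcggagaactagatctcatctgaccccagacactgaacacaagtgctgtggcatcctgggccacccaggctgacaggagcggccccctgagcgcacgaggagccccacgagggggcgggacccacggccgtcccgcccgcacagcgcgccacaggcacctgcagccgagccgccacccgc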

How the data were processed

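Poly-A RNA of liver, muscle and cortex was sequenced as directional libraries, which the authors aligned to GRCm39 with Hisat2 and counted on genes with featureCounts. What was deposited are raw read counts, 1 column per library, without normalization, and the deposited table also gives each gene's length in bases, which served as other than a measurement, to set levels on a per-length scale. Column names and labels gave tissue, diet, sex and mouse number, and 95 of 96 columns were used. The members and the lists of genes were chosen with earlier results of these data known.

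Each tissue of each set of mice was fitted alone with edgeR 4.0.16 in R 4.3.3 (TMM factors, filterByExpr with a minimum count of 10 and a minimum total of 15, robust quasi-likelihood fit and test), and p-values were adjusted over all genes tested by Benjamini-Hochberg, with calls made under 0.05. Interactions of diet with set of mice, within a tissue, and of diet with tissue, within a set, tested differences in response. SE is the log2 fold change over the square root of its F, and 95% intervals are 1.96 SE. CPM use the TMM-scaled library of each fit, and CPM per kb the TMM factors over all 95 libraries. Log2 CPM for correlations had a prior count of 2. The depth of at least 26097314 counts in each library limits only genes at a few counts, and the spread between mice is given in place of counting intervals, which would cover counting error only.

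Values in every group are given for Cpt1a, Cpt1b, Cpt1c and Cpt2 and for the genes among the 5 largest changes past the threshold, with a mean of at least 1 CPM, in any comparison of the diets. Of the other pathway genes 8 are given from a written list of 10 and up to 4 of each list by their change. Other values were picked after they were seen, as were the levels of AL livers compared between the sets. Alternatives were RLE size factors, DESeq2 1.42.0, its unadjusted p, a filter at 1 count only, a filter at 10 counts in all libraries, replicate or mouse number as a block, marker levels as covariates, leaving out AL mouse 2 and IF mouse 10 (7 mice per group, 6 for AL in cortex; the paper gives 7 per group without naming the libraries, and its proteome tables lack these mice), and libraries left out after their marker levels were seen. The plots come from matplotlib 3.10.9 under Python 3.11.15.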

Additional observations from a re-analysis of the deposited data

Results flagged for a closer look

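Of 148 groups of libraries looked at for a value far from the rest, 15 held such a value by Dixon's test, where chance alone gives about 1 in 20. In muscle these were Cpt1a in IF mouse 34 at 7.81 CPM, Cpt2 in AL mouse 2 at 92.1 CPM and in IF mouse 12 at 130.1 CPM, Acot1 in IF mouse 12 at 8.39 CPM and in AL mouse 28 at 8.68 CPM, and Acot3 in IF mouse 12 at 0.456 CPM. The summed slow fibre markers stood at 4536 CPM in muscle of IF mouse 36. In liver they were Cpt1b in AL mouse 4 at 0.0368 CPM, Cpt1c in IF mouse 34 at 3.72 CPM and Acot1 in IF mouse 14 at 265 CPM. Cortex had Cpt1b in AL mouse 26 at 0.0863 CPM and Acot1 in IF mouse 36 at 17.8 CPM. Both Cpt1b values, of 1 and 3 counts, stand in groups otherwise at 0, where any count passes Dixon's test, so nothing is read from them. The summed choroid plexus markers of cortex stood at 3178 CPM in AL mouse 4, 3508 CPM in IF mouse 11 and 4420 CPM in IF mouse 36.

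Groups differed in their response to IF, by the test of the interaction, for 24 genes of the set between the sets of mice in liver, 11 in muscle, and 24 between liver and muscle of mice 1 to 16. Between the sets of mice in liver (mice 25 to 40 minus mice 1 to 16) the log2 responses differed by −4.51 for Acot1, −4.41 for Acot3, −2.15 for Ehhadh, −1.89 for Acadvl and −1.75 for Acot4. In muscle they differed by −1.52 for Acot2, −1.42 for Ehhadh, −1.20 for Cpt1a, −1.03 for Cd36 and −0.97 for Slc27a1. Between liver and muscle of mice 1 to 16 (muscle minus liver) they differed by −2.63 for Acot1, −1.80 for Crat, −1.79 for Acadvl, −1.38 for Hadha and −1.36 for Acads.

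Xist was at 213 CPM in the cortex library labelled male AL replicate 1, which no comparison used. That library's closest match among the libraries used was cortex IF mouse 40, at a chi-square per gene of 4.75, where the closest pair of cortex libraries used had 9.05 and the median over pairs was 45.8.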

How the results depend on the processing

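Log2 fold changes and differences were followed under alternatives for the genes of the set that passed or are given in every group, the largest differences, and the pathway genes named. Of these values 1195 kept their direction and side of the threshold, 44 kept their direction and no longer passed, 1 newly passed and 15 changed sign, and the cause was not tested. Genes of the set not followed also passed in places, among them Acsl3 and Fabp1 in liver, Crot, Crat, Eci1, Hadha and Fabp3 in muscle and Acaa1a in cortex of mice 1 to 16. All 66 levels per length moved by less than 1 SD with RLE factors. The number of genes of the set that passed stayed within 1.5 times the number reported in 69 of 77 cases.

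It moved in liver of mice 25 to 40, from 0 to 1 with DESeq2's unadjusted p, and in muscle of mice 1 to 16, from 14 to 9 with white adipocyte markers as a covariate. With DESeq2's unadjusted p it was 2 in muscle of mice 25 to 40, 3 in cortex of mice 25 to 40 and 7 in cortex of mice 1 to 16, where it was 3 as reported, 1 with the replicate number as a block, 0 without AL mouse 2 and IF mouse 10, and 0 without AL mouse 4 and IF mice 11 and 14. Beside each 0, edgeR's unadjusted p under 0.05 gave 0, 3 and 3 genes in liver, muscle and cortex of mice 25 to 40.

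Over all genes, 4284 passed in liver of mice 1 to 16 with the erythrocyte markers as a covariate, against 7234. In liver of mice 25 to 40 there were 6 with DESeq2 and 1059 with its unadjusted p, against 0 with edgeR. Muscle had 5407 against 3463 in mice 1 to 16 with the unadjusted p. In muscle of mice 25 to 40 there were 91 with DESeq2, 1742 with its unadjusted p and 5 without a filter, against 1. Cortex of mice 1 to 16 had 2259 with DESeq2, 4663 with its unadjusted p, 382 with the block, 498 without AL mouse 2 and IF mouse 10, and 213 without AL mouse 4 and IF mice 11 and 14, against 1332. In cortex of mice 25 to 40 there were 73, 2235 and 0 with the first 3 of these, 0 with the erythrocyte covariate and 1 without IF mice 34 and 36, against 2. DESeq2 found 706 differences between the sets in cortex, against 397, and 53 between liver and muscle of mice 25 to 40, against 2 with edgeR and 0 with the mouse number as a block.

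Signs changed only for genes that did not pass. In muscle of mice 1 to 16 Cpt1b, at 0.20, went to −0.21 with the white adipocyte covariate, −0.095 without AL mouse 2 and IF mouse 10 and −0.13 without IF mice 9, 10 and 12. In muscle of mice 25 to 40 it went from 0.00041 to −0.0093 with at least 10 counts in every library, −0.0094 with the block, −0.13 with the white adipocyte and −0.016 with the slow fibre covariate. There Acaa1b went to 0.19 and Cpt2 to −0.026 with the white adipocyte covariate, and Acot1 to 0.36 with the erythrocyte covariate. In cortex of mice 1 to 16 Acaa1b went to 0.063 with the block, 0.073 with the erythrocyte covariate and 0.050 without AL mouse 2 and IF mouse 10. In cortex of mice 25 to 40 Ehhadh went to 0.0076 with the block and Acsl4 to 0.021 without IF mice 34 and 36.

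AL and IF libraries with the same replicate number carry different mouse numbers, and their deviations had median correlations from −0.10 to 0.073. For liver and muscle of the same mouse number the medians ran from 0.0035 to 0.030. These values cannot decide whether such libraries come from the same mouse, as no value for libraries known to share a mouse was at hand. The reported test between liver and muscle did not use the mouse number, which entered as a block only among the alternatives. Leaving out libraries by marker level, and the erythrocyte and white adipocyte covariates in the tests between the sets, were chosen after the data were seen. Depth limits Cpt1b in liver and cortex, Acot3 in muscle and Cd36 in cortex, where libraries held few counts. For Cpt1b and Acot3 the part of the overlapping gene models in the low counts was not tested.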
